A study of Rattus norvegicus with 8 samples.

Results

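The genes described here encode the epidermal growth factor (EGF) receptor and 6 of its ligands: the receptor Egfr, and the ligand genes Egf, Tgfa (transforming growth factor alpha), Areg (amphiregulin), Hbegf (heparin-binding EGF-like growth factor), Ereg (epiregulin) and Btc (betacellulin). Probes were chosen by the RefSeq accession on the array, and all 7 genes were found, with 1 probe and 1 spot each, among 24684 probes, of which 21527 were bright enough to be tested. All 7 were well above background in all 8 samples, so that none was lost to the filter on dim probes. Full-thickness skin was taken from Sprague-Dawley rats, all male, and profiled on 1-colour Agilent arrays. STZ rats were injected intraperitoneally at 4 weeks of age with 60 mg/kg streptozotocin, which is toxic to pancreatic beta cells, the source of insulin, and sham rats were given sodium citrate solution instead. In both groups skin was taken 4 weeks later, at 8 weeks of age. The labels give no blood glucose and mention a wound without saying if these skin pieces came from one.

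Each group has 4 labelled samples, but replicates 1 and 3, and replicates 2 and 4, of a group shared 1 array position on 1 slide and differed only in the scan. Their log2 signals differed with an SD of 0.074 to 0.091 over probes; for samples of 1 group on different arrays the SD was 0.809 to 1.074. The scans of 1 array were therefore averaged, and 2 STZ arrays were set against 2 sham arrays (n = 2 each). The sources used here do not say how many rats gave RNA to an array, so that p-values measure only the spread between these arrays. The 75th percentile of spot intensity was 1481 and 1496 in the scans of the array of STZ replicates 1 and 3, 606 and 624 in those of STZ replicates 2 and 4, and 1138 to 1336 in the sham samples. Signals below are log2 intensities over that percentile, which was subtracted per sample. On this scale the median probe was 0.23 higher in STZ than in sham skin, and changes are given relative to that median. Of 13 markers of basal and suprabasal keratinocytes, 5 were tested, and limma put none higher and 1, Ivl (involucrin, of the upper layers), lower before adjustment (p under 0.05). Over all tested probes, 7.30% were higher and 3.52% lower at that p. The 5 markers went both ways, with changes of 1.34 for Krt1 and −1.89 for Ivl. Their mean log2 signal was 5.35 and 4.78 in the STZ arrays and 5.47 and 4.57 in the sham arrays.

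The EGF receptor is a tyrosine kinase of the cell surface that pairs up when a ligand binds and signals through the RAS-ERK and PI3 kinase routes. Its ligands are made as membrane-anchored precursors that metalloproteinases of the ADAM family cut free. EGF, TGF-alpha and amphiregulin act through the EGF receptor, while HB-EGF, epiregulin and betacellulin can also act through ErbB4. In skin the receptor is most abundant in basal keratinocytes and the outer root sheath of the hair follicle, and mice that lack Tgfa or carry a weakened Egfr have wavy hair and whiskers. Keratinocytes themselves make several of the ligands, and epiregulin, amphiregulin and HB-EGF are induced in wounded or inflamed epidermis.

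Of the 7 genes, 6 have a window of 250 bases before to 50 bases after the gene's start in the RefSeq promoter table (build GRCr8), and 3 are printed, 5′ to 3′ on the gene's own strand. Tgfa and Egfr are shown because both were lower in STZ skin with no overlap between the groups, and Areg because its gene lies next to Ereg, which was higher. Capitals mark letters that match 1 of 4 motifs searched on both strands: the AP-1 site (TGANTCA), the cyclic AMP response element (TGACGTCA), the GC box (GGGCGG, read as CCGCCC on the other strand) and the TATA box (TATAAA). The motifs did not overlap one another in these windows.
Tgfa, chr4:120175469-120175768, plus strand: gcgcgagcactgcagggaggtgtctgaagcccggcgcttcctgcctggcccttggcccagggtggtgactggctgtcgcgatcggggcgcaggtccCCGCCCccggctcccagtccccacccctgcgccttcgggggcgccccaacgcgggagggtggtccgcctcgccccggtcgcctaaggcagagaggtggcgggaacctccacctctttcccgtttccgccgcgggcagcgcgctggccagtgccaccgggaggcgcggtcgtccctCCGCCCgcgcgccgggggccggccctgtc
Egfr, chr14:95378376-95378675, plus strand: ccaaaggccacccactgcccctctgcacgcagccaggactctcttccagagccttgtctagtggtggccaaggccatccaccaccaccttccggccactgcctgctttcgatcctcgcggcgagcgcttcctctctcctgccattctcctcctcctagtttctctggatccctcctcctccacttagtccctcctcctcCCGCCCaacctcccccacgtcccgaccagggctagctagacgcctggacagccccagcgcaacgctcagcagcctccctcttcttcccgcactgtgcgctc
Areg, chr14:17265592-17265891, minus strand: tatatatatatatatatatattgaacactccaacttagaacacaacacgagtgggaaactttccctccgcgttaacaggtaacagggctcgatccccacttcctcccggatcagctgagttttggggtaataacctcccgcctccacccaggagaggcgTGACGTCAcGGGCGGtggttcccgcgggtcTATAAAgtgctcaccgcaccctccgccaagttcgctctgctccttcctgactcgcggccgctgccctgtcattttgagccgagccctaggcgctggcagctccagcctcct
The Tgfa window is 76.7% G and C and the Egfr window 64.3%, against a median of 51.7% over 33469 windows of the same length. Each holds the GC box, at −154 and 22 in Tgfa and at −51 in Egfr (first base of the match, counted from the gene's start), a motif found in 33.1% of all windows. Neither holds the other 3 motifs. The Areg window holds the cyclic AMP response element at −91, which 1.83% of all windows hold, a GC box at −82 and a TATA box at −61, which 14.2% hold. The AP-1 site, in 7.33% of all windows, was found in none of the 6. The gene without a window is Ereg, so no motif was searched for it. These matches are letters in a window and say nothing about binding in these samples. In the same RefSeq table Btc, Areg, Ereg and Epgn (epigen, a further ligand) follow each other on chromosome 14 with no gene between them.

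Epiregulin transcript was higher in STZ skin, while transcripts of TGF-alpha and of the receptor itself were lower, and for these 3 of the 7 genes the STZ and sham arrays did not overlap. Over all tested probes 26.8% were higher and 17.9% lower without overlap, so that 3 of 7 is about the share of the whole array. Ereg was 3.54-fold higher in STZ skin, and Tgfa and Egfr stood at 0.191 and 0.285 of their sham signal, relative to the median probe. The remaining ligands Areg, Egf, Btc and Hbegf had overlapping groups. None of the 7 passed limma's moderated test after Benjamini-Hochberg adjustment over all 21527 probes (adjusted p from 0.334 to 0.888), nor did any other probe (lowest adjusted p = 0.0758). In whole skin, fewer cells of a type and less RNA per cell cannot be told apart.

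The log2 signal of Ereg was 1.15 and −0.27 in the 2 STZ arrays and −1.59 and −1.63 in the 2 sham arrays. Both STZ arrays lay above both sham arrays, by at least 1.32, and the sham arrays differed by only 0.04 while the STZ arrays differed by 1.42. Its change was 1.82 ± 0.61 (SE), with an adjusted p of 0.334 by limma. In background-subtracted intensity, not scaled between arrays, Ereg read 3300 and 3310 in the scans of STZ replicates 1 and 3, 513 and 510 in STZ replicates 2 and 4, and 379 to 430 in the sham scans. The intensity in the dimmer STZ array was thus above every sham scan, but by less than on the log2 scale over the 75th percentile, which was lower on that array.

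Tgfa had log2 signals of 1.53 and −0.27 in the STZ arrays and 2.92 and 2.66 in the sham arrays. The groups were separated by 1.13, and the STZ arrays differed from each other by 1.80. The change of this ligand, which keratinocytes make for themselves, was −2.39 ± 0.71, lower than that of all but 1.5% of tested probes, with an adjusted p of 0.381 by limma. Its intensity was 4280 and 4320 in STZ replicates 1 and 3, 502 and 517 in STZ replicates 2 and 4, and 8200 to 8890 in the sham scans.

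Egfr, the receptor, was at 0.94 and −0.70 in the STZ arrays and at 1.63 and 1.77 in the sham arrays. Here too the STZ arrays were both lower, by 0.69 at the closest, and the array of STZ replicates 2 and 4 was the lower of the pair. The change was −1.81 ± 0.66, with an adjusted p of 0.491 by limma (unadjusted p = 0.0626, on the scale before the median shift is taken off, and 0.0429 after centring on the median).

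**Figure D1:**
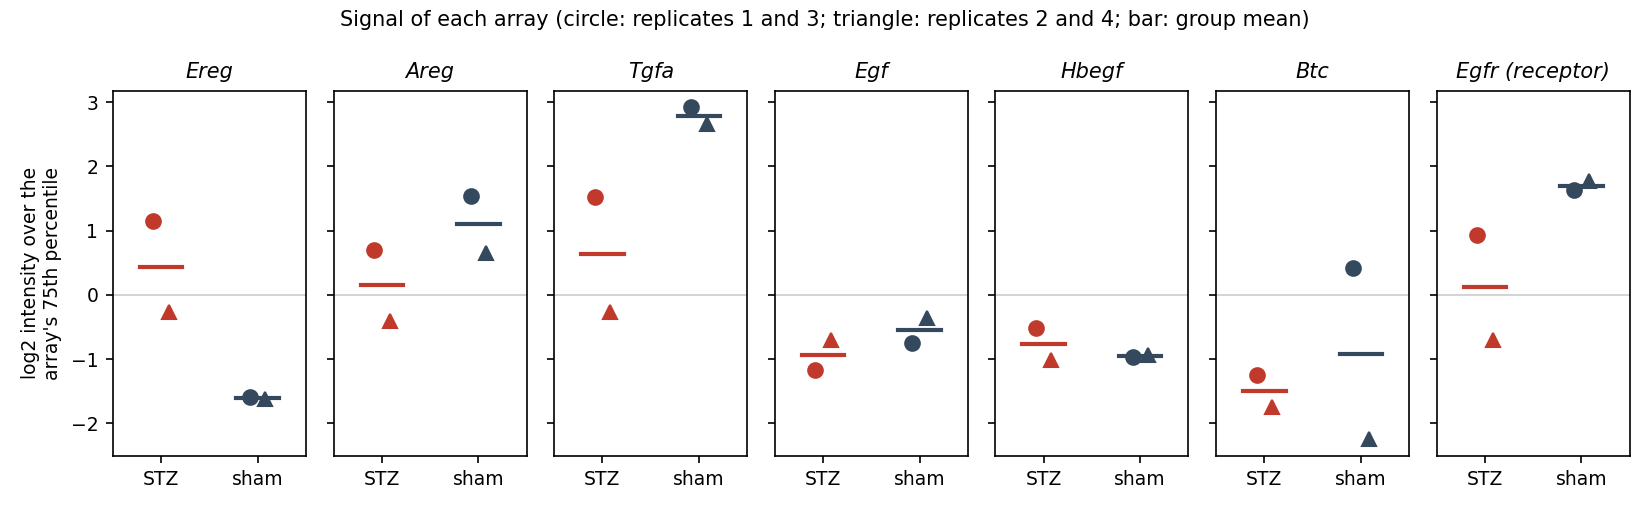
Log2 intensity relative to each array's 75th percentile (vertical axis) of the 6 ligand genes and Egfr on the 2 STZ arrays (left in each panel) and the 2 sham arrays (right), each point the mean of 2 scans of 1 array and each bar the group mean. The STZ points lie above the sham points for Ereg and below them for Tgfa and Egfr, and the groups overlap in the other panels.

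The counts of called genes were read against those over all tested probes. At an unadjusted p under 0.05 by limma, 1 of the 7 genes was higher (Ereg) and 1 lower (Tgfa), where 7.30% of all tested probes were higher and 3.52% lower. A change of over 1 on the log2 scale was seen for Ereg alone, against 15.5% of all tested probes, and one under −1 for 3 of the 7 genes (Tgfa, Egfr and Areg), against 9.24%. No test of these shares was made, and with 7 genes they say nothing particular about the family. With 2 arrays against 2, an exact permutation test of 1 gene cannot give a p below 0.333.

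Areg, a ligand that keratinocytes make and that promotes their growth, was at 0.71 and −0.41 in the STZ arrays and at 1.54 and 0.66 in the sham arrays. The brighter STZ array lay just above the dimmer sham array, so that the groups overlapped narrowly, and the change was −1.18 ± 0.61 (adjusted p = 0.617 by limma). Egf, the ligand after which the family is named, was at −1.17 and −0.70 in the STZ arrays and at −0.75 and −0.35 in the sham arrays, a change of −0.61 ± 0.46. Its groups overlapped narrowly on this scale, and they did not overlap, with STZ lower, after quantile normalization, after centring on the median and after normexp background correction.

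Hbegf, a ligand that binds heparan sulphate, was at −0.52 and −1.02 in the STZ arrays and at −0.97 and −0.94 in the sham arrays. Its change of −0.04 had a 95% interval from −1.18 to 1.09, wide enough to hold changes far larger than −0.04 in either direction. Btc was the gene with the widest spread in sham skin, at −1.25 and −1.74 in the STZ arrays and at 0.41 and −2.24 in the sham arrays. Both STZ arrays lay between the sham arrays, and the change of −0.81 ± 0.95 had an interval from −3.24 to 1.63. The rescans of 1 array differed by at most 0.065 for any of the 7 genes, so the sham difference in Btc is one between arrays and not between scans.

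**Figure D2:**
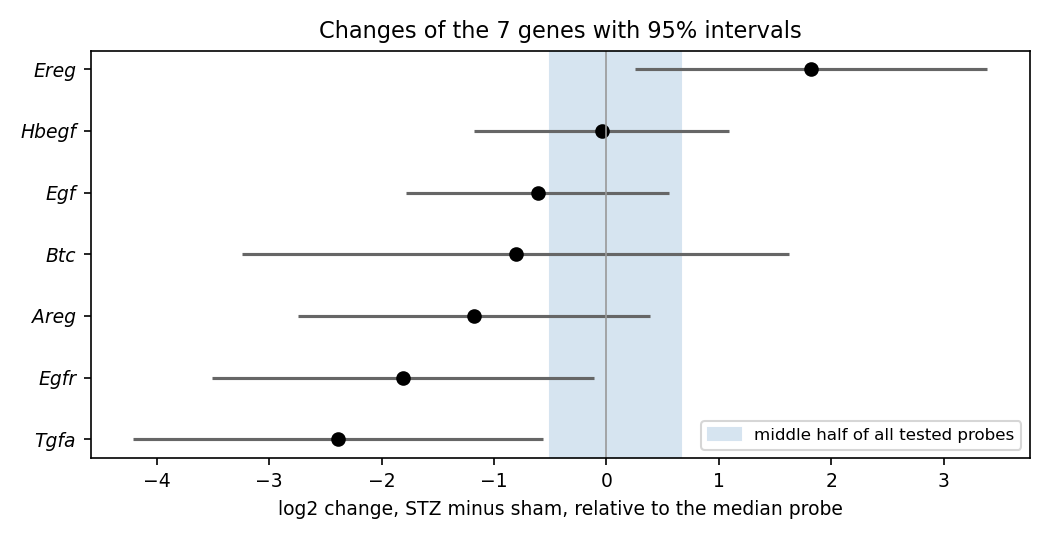
Log2 change of each gene (STZ minus sham, relative to the median probe; points) with its 95% interval from limma's moderated variance (lines); the shaded band runs from the lower to the upper quartile of all tested probes, −0.50 to 0.66. The intervals, which take the median shift as fixed, lie above 0 for Ereg, below 0 for Tgfa and Egfr, and span 0 for the other genes.

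The 2 STZ arrays were less alike than the 2 sham arrays for most of these genes. The array of STZ replicates 1 and 3 was higher than that of STZ replicates 2 and 4 for 6 of the 7 genes, all but Egf, by 0.49 to 1.80. Over all tested probes the same difference was positive for 36.3%, with a median of −0.34 and an SD of 1.17. Between the sham arrays, 4 of the 7 genes were higher in replicates 1 and 3, and apart from Btc (2.66) and Areg (0.88) the differences were within 0.39.

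A ratio of 2 genes on the same array does not depend on the percentile or median subtracted from an array, and only its shift between groups can be read, since the probes differ. The log2 ratio of Ereg to Tgfa was −0.38 and 0.01 in the STZ arrays and −4.51 and −4.28 in the sham arrays. It was thus 4.21 higher in STZ skin, and the arrays of a group lay close together. Ereg to Egfr gave 0.21 and 0.43 in the STZ arrays and −3.22 and −3.40 in the sham arrays, a shift of 3.63. The shift was 3.0 against Areg, 2.63 against Btc, 2.43 against Egf and 1.86 against Hbegf, and the groups did not overlap in any of the 6 ratios. All 6 share Ereg, which was itself higher without overlap. Tgfa and Egfr were lower without overlap, so the ratios of Ereg to them could not overlap. Ereg was set against the others after its values had been seen, so these ratios describe the arrays and were not tested.

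**Figure D3:**
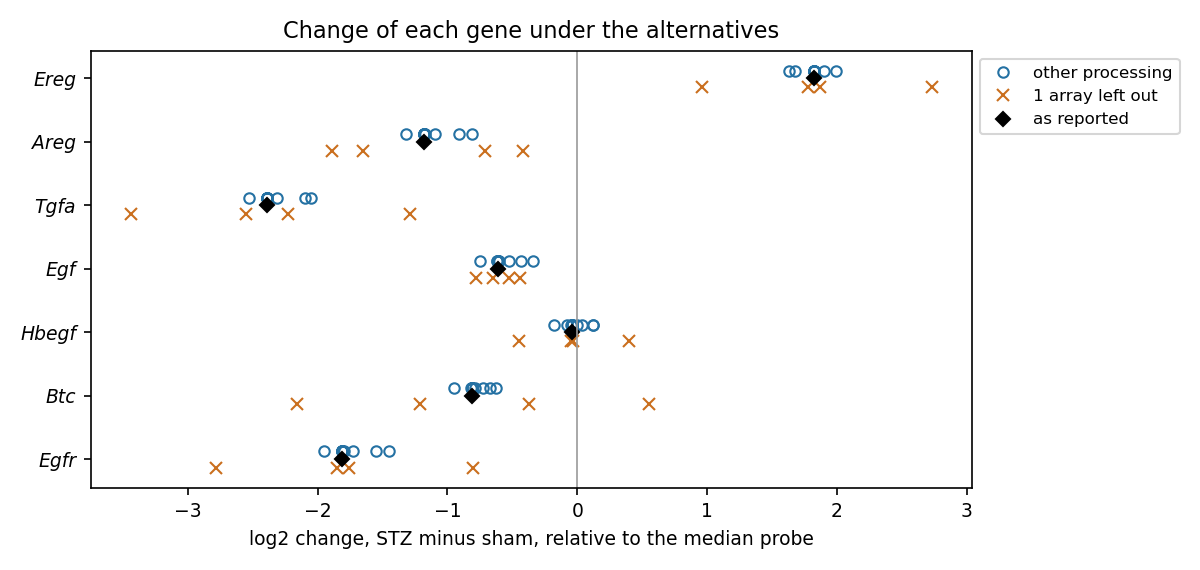
Log2 change of each gene relative to the median probe (STZ minus sham, horizontal axis) as reported (diamonds), with 1 array left out (crosses) and under the other processing alternatives (circles). Ereg stays above 0, and Tgfa, Egfr, Areg and Egf below 0, in every setting drawn, while Hbegf and Btc lie on both sides.

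The size of these changes rested on single STZ arrays. With STZ replicates 1 and 3 left out the change of Ereg was 0.96, and with STZ replicates 2 and 4 left out it was 2.73. For Tgfa the values were −3.44 and −1.29, for Egfr −2.78 and −0.80, and for Areg −1.89 and −0.42, in the same order. With either sham array left out, neither Ereg nor Tgfa was past an unadjusted p of 0.05 by limma. The change of Btc rested on the sham arrays: it was 0.55 with sham replicates 1 and 3 left out and −2.16 with sham replicates 2 and 4 left out.

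The genes with the most similar profile over the 4 arrays were sought among 12614 other named genes, by the distance between log2 signals centred on each gene's mean. Nearest to Ereg were Klk6, a kallikrein-type serine protease (distance 0.130), Arhgap30 (0.236), and Fgfbp1, a carrier that frees fibroblast growth factors from the matrix (0.274). Klk6 was at 5.16 and 3.81 in the STZ arrays and at 2.55 and 2.35 in the sham arrays. Nearest to Tgfa were Dusp2, a phosphatase of MAP kinases (0.122), Epha4, an ephrin receptor (0.211), and Rab15, a GTPase of endosome traffic (0.218). Dusp2 was at 2.44 and 0.62 in the STZ arrays and at 3.86 and 3.43 in the sham arrays. With 4 arrays many genes can share a profile, and the likeness is a description.

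Of the other ERBB receptors and ligands, 4 of 8 were tested: the receptors Erbb2 and Erbb3 and the neuregulins Nrg1 and Nrg2, while Erbb4, Epgn, Nrg3 and Nrg4 were not. By limma, 1 of the 4 was higher and 1 was lower before adjustment (p under 0.05), where 7.30% and 3.52% of all tested probes were, and none passed after adjustment (lowest adjusted p = 0.346). Erbb2, the partner receptor that binds no ligand of its own, was at −0.91 and −1.97 in the STZ arrays and at −0.57 and −0.26 in the sham arrays, a change of −1.25 ± 0.54. It was −0.53 with STZ replicates 2 and 4 left out and −1.94 with STZ replicates 1 and 3 left out. Erbb3, a neuregulin receptor with little kinase activity, was at −2.46 and −5.04 in the STZ arrays and at −2.59 and −1.97 in the sham arrays. Its groups overlapped, and its change of −1.70 was −0.22 once STZ replicates 2 and 4 were left out. Nrg2 had a change of −2.12 ± 0.58, with −1.78 and −1.21 in the STZ arrays and −0.17 and 0.97 in the sham arrays. Nrg1 had one of 0.92 ± 0.45, with −3.68 and −3.62 in the STZ arrays and −4.54 and −5.07 in the sham arrays. The groups of both neuregulins did not overlap. Of the 4 tested genes, 1 was higher and 2 were lower without overlap, where 26.8% and 17.9% of all tested probes were. The change of Nrg1 was 0.50 after quantile normalization and 0.26 after normexp, and its unadjusted p was over 0.05 in both, after centring on the median and with any 1 array left out. That of Nrg2 was over 0.05 with STZ replicates 1 and 3 or sham replicates 2 and 4 left out. Each of Egfr, Erbb2 and Erbb3 thus had a lower mean in STZ skin, and each was lowest on the array of STZ replicates 2 and 4.

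Of the sheddases that release the ligands and their cofactors, 6 of 11 were tested, and Adam17 and Adam10 were not among them. By limma, 1 gene was higher and 1 was lower before adjustment (p under 0.05; 7.30% and 3.52% of all tested probes), with a median change of 0.29. Adam19, a metalloproteinase that can cut neuregulin precursors, was at 0.35 and 0.74 in the STZ arrays and at −1.35 and −1.96 in the sham arrays, a change of 1.98 ± 0.47 (adjusted p = 0.202), not past an unadjusted p of 0.05 with sham replicates 2 and 4 left out. Timp3, an inhibitor of ADAM17, was at 3.97 and 3.74 in the STZ arrays and at 5.22 and 4.84 in the sham arrays, a change of −1.40 ± 0.44, which was past an unadjusted p of 0.05 only with STZ replicates 1 and 3 left out, of the 4 fits that leave out 1 array. Adam15 had a change of 0.74 ± 0.46 and Adam9 one of 0.47 ± 0.80, neither past an unadjusted p of 0.05.

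Of the genes that restrain the receptor or carry it to lysosomes, 12 of 17 were tested, none was past an unadjusted p of 0.05 by limma, and the median change was −0.14. Ptprj, a receptor phosphatase that acts on EGFR, had a change of 1.06 ± 0.52 and Socs3, a feedback inhibitor of cytokine receptors, one of 1.33 ± 0.78. Cblb, a ubiquitin ligase, was at 0.64 ± 0.48, and Ptpn1, a tyrosine phosphatase, at 0.44 ± 0.50. These 4 have the smallest p of the list, and all had higher signals on both STZ arrays than on both sham arrays. Over the whole list, 5 of the 12 were higher and 1 was lower without overlap, where 26.8% and 17.9% of all tested probes were. Of the 12, 7 lay below the median probe, and Cblc, a further ubiquitin ligase of the Cbl family and next by p, was lower without overlap, at 1.08 and −0.17 in the STZ arrays and 1.20 and 1.16 in the sham arrays. The sizes rested on single arrays: with 1 array left out in turn, the change was 0.42 to 1.74 for Ptprj, 0.54 to 2.17 for Socs3, 0.26 to 1.02 for Cblb and −0.13 to 1.04 for Ptpn1. Errfi1, the inhibitor that is itself induced by EGF, had signals of 4.52 and 4.82 in the STZ arrays and 4.78 and 4.63 in the sham arrays, with overlapping groups; it was named after its values were seen.

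The list of feedback regulators and early targets of the ERK pathway had 16 of 19 genes tested. Before adjustment limma put 2 of them lower and none higher (p under 0.05), where 3.52% of all tested probes were lower and 7.30% higher. Its median change was −0.79 and 15 of the 16 were below the median probe. Of these, Dusp6, Myc and Junb lay close to it, at −0.03, −0.12 and −0.14. Before the median shift is taken off, their means were higher in STZ skin, by 0.20, 0.11 and 0.09. Fos and Etv5, the 2 past that p, encode transcription factors. Fos, an immediate early transcription factor, was the furthest, at −1.07 and −1.54 in the STZ arrays and 2.69 and 2.35 in the sham arrays (change −4.05 ± 0.45, adjusted p = 0.102). Etv5, a transcription factor, had a change of −1.68 ± 0.50, Dusp5, a phosphatase of ERK, one of −1.58 ± 0.55, and Spry4, a feedback inhibitor of receptor tyrosine kinases, one of −1.22 ± 0.47. The groups of these 3 did not overlap. Over the whole list, 6 of the 16 were lower and 1 was higher without overlap, where 17.9% and 26.8% of all tested probes were. The change of Dusp5 was −0.81 with STZ replicates 2 and 4 left out and −2.31 with STZ replicates 1 and 3 left out, and Etv5 was past an unadjusted p of 0.05 only with STZ replicates 1 and 3 left out, of the 4 fits that leave out 1 array. The gene above the median was Fosl1, a partner in AP-1, with a change of 1.24 ± 0.70, at −0.18 and −1.96 in the STZ arrays and at −2.41 and −2.67 in the sham arrays.

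Of the signal relay below the receptor, 22 of 24 genes were tested, 1 was lower and none higher before adjustment (limma, p under 0.05; 3.52% and 7.30% of all tested probes), and the median change was −0.44. Of the 22, 18 lay below the median probe, as did 6 of the 7 genes described here, so that lying below it was not particular to the ERK list. Hras, a RAS protein, was at −1.60 and −2.30 in the STZ arrays and at −0.16 and −0.53 in the sham arrays, a change of −1.84 ± 0.48. Shc1, an adaptor that binds the active receptor, had one of 0.53 ± 0.41. Ptpn11, a phosphatase that promotes RAS signalling, was at −1.47 ± 0.80 and Pik3r1, the regulatory subunit of PI3 kinase, at −1.03 ± 0.53. With STZ replicates 2 and 4 left out these were −0.63 for Ptpn11 and −0.40 for Pik3r1, and Ptpn11 was −0.62 with sham replicates 2 and 4 left out. Hras was past an unadjusted p of 0.05 only with STZ replicates 1 and 3 left out, of the 4 fits that leave out 1 array. With STZ replicates 2 and 4 left out, the median of this list was 0.08. In the 5 lists together, 2 genes were higher and 5 lower of 60 tested, at a p under 0.05 by limma before adjustment, where 7.30% of all tested probes were higher and 3.52% lower. The lower count was 11 with STZ replicates 1 and 3 left out and 1 with sham replicates 2 and 4 left out, and the higher count was 4 with STZ replicates 2 and 4 left out and 1 with either sham array left out.

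**Figure D4:**
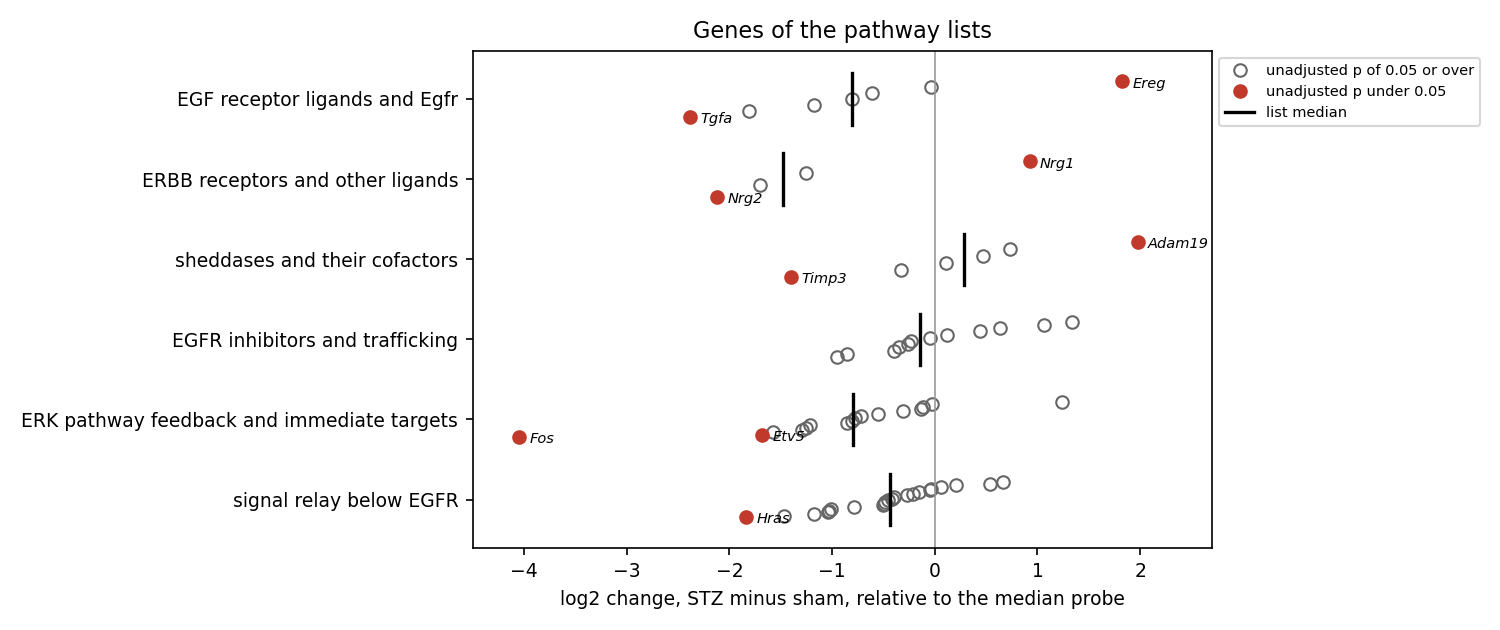
Log2 change relative to the median probe (STZ minus sham, horizontal axis) of each tested gene of the 7 genes described and of 5 pathway lists; filled points mark an unadjusted p under 0.05 by limma, open points the rest, and black lines the list medians. Ereg lies above 0 while Tgfa and Egfr lie below. The ERK feedback list has 15 of 16 genes below 0, some of them close to it, and the relay list has 18 of 22.

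Markers of other cell types differed between the groups on the same arrays. At an unadjusted p under 0.05 by limma, 7.30% of all tested probes were higher in STZ skin and 3.52% lower. All 12 tested markers of the growing hair shaft and inner root sheath were lower at that p. Their mean log2 signal was 0.57 and −2.46 in the STZ arrays and 5.07 and 5.48 in the sham arrays. This mean was lowest on STZ replicates 2 and 4 and next lowest on STZ replicates 1 and 3, as were Tgfa and Egfr. The order was the same for Erbb2, Hras and Etv5, and for others of the pathway lists, among them Fos, Dusp5, Cblc and Pik3r1. The mean of the sebaceous markers had it too, at −1.35 and −1.65 in the STZ arrays and −0.88 and −0.66 in the sham arrays. Over all tested probes 17.9% were lower without overlap, with the STZ arrays in either order. The share of probes with this exact order was not counted, so the order is not particular to the genes named. Of 11 macrophage and dendritic cell markers 10 were higher, with means of 3.23 and 3.19 in the STZ arrays and 1.08 and 0.48 in the sham arrays. Of 8 tested neutrophil markers 7 were higher, and they averaged −0.43 and −1.05 in the STZ arrays and −4.15 and −4.65 in the sham arrays, and of 9 T and NK cell markers 7 were higher, averaging −0.41 and 0.50 in the STZ arrays and −2.49 and −2.82 in the sham arrays. The 3 tested markers of wound and stress keratinocytes averaged 4.61 and 2.99 in the STZ arrays and 1.27 and 1.54 in the sham arrays. Of these, Krt16 and S100a8, which neutrophils also make, were higher (2 of 3), and Krt17 had overlapping groups. The 8 mast cell markers had a median change of −0.83, the 6 adipocyte markers −1.16, the 6 fibroblast markers 0.84, the 4 sebaceous markers −0.47 and the 7 skeletal muscle markers −0.63. At an unadjusted p under 0.05 by limma, 2 adipocyte markers and 1 sebaceous marker were lower and 2 fibroblast markers were higher. No mast cell or skeletal muscle marker was past that p. The part of these markers in the changes of the 7 genes was not tested.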

How the data were processed

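Per the labels' protocols, RNA from skin was amplified with a Cy3 label for 1-colour Agilent arrays. The deposited processed intensity of each spot is background-subtracted, per the file headers, by version 11.0.1.1 of Agilent Feature Extraction (11.0.0.1 per the submitters' processing notes), and not normalized between arrays. The deposited median spot and background intensities, used for 1 alternative, are uncorrected, and the deposited flags for background and outliers are other values of 0 or 1 from the same software.

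Processed intensities were taken to log2 with no pseudocount, the 75th percentile of the 42136 noncontrol spots was subtracted per sample, and spots of 1 probe were averaged without flagged outliers. No spot was saturated. A probe was tested if 4 or more of the 8 samples had it well above background. Samples were grouped by the labels, rescans were averaged, and STZ was compared with sham by limma 3.58.1 in R 4.3.3 (lmFit and eBayes, two-sided), with Benjamini-Hochberg adjustment over every probe tested. Each p refers to the 75th percentile scale, before the median shift is taken off. The script was tested on simulated data. Probes were named by unversioned accession through RefSeq (GRCr8), which named 14294 of 24684 probes; the array itself was annotated on rn4. A gene with several probes is given by the brightest. The array number limits the precision.

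The genes, lists and tests were chosen with earlier results of these data known. Named genes are the 7, the tested ERBB genes, up to 4 of each other pathway list with the smallest p, and 3 nearest profiles each for the genes with the largest change up and down. Fosl1, Errfi1 and Cblc were added after their values were seen. Replicate numbers give no shared animal, and same-numbered arrays deviated oppositely (r = −0.201 across probes), so they were not taken as pairs.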

Additional observations from a re-analysis of the deposited data

How the results depend on the processing

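Ereg above the median probe, and Tgfa, Egfr, Areg and Egf below it, kept their direction under every alternative run. Hbegf turned to 0.40 without STZ replicates 2 and 4, 0.12 after quantile normalization and after normexp, and 0.04 with probes above background in all samples; Btc turned to 0.55 without sham replicates 1 and 3. Without STZ replicates 1 and 3, Adam9 turned to −0.75, Ptpn1 to −0.13 and the sheddase median to −0.41. The median of the receptor inhibitors turned to 0.13 without STZ replicates 2 and 4 and to 0.16 after quantile normalization and after normexp. The relay median turned to 0.08 without STZ replicates 2 and 4. The median of all probes was −0.04 after quantile normalization and −0.02 after normexp. The causes were not tested.

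With the 8 scans as separate samples, which counts each array more than once, 5236 probes passed after adjustment, among them Ereg, Tgfa and Egfr, and at an unadjusted p under 0.05 there were 5317 higher and 3319 lower, with 3 of the 7 genes lower and 11 pathway genes each way. Centred on the median of tested probes, 131 probes passed after adjustment, among them Fos (adjusted p = 0.0426); Egfr reached an unadjusted p under 0.05, so that 2 of the 7 genes were lower, and 1 pathway gene was higher. Unadjusted, 1153 probes were lower after quantile normalization and 1355 after normexp, where 4 pathway genes were higher. In the first scans, and without a filter, 1 pathway gene was higher. With 1 array left out in turn, the 7 genes gave 0 to 1 higher and 0 to 2 lower, pathway genes 1 to 4 higher and 1 to 11 lower, all probes 677 to 5380 higher and 305 to 1094 lower (1031 higher and 367 lower without sham replicates 1 and 3), and 0 to 49 probes passed after adjustment. Without either sham array neither Ereg nor Tgfa was past an unadjusted p of 0.05; the lone array was then assumed to vary like the other group.

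With the array number as a replicate block, 1 pathway gene was higher and 3 were lower, and no other count moved by over 1.5 times. All arrays lay on 1 slide, so no slide block was run. The STZ arrays lay at positions 1 and 2 of the slide and the sham arrays at positions 3 and 4. Position and group therefore cannot be told apart. With numbers crossed, an alternative chosen after seeing the data, 2 of the 7 genes were lower and no other count moved by over 1.5 times.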
